A study of Mus musculus with 2 samples.

Results

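IFITM genes encode small membrane proteins induced by interferon, and they are also transcribed in blood stem cells that have met no infection. This section follows 8 antiviral transcripts in single mouse bone marrow cells: the 3 Ifitm genes Ifitm1, Ifitm2 and Ifitm3, and 5 other interferon-induced genes, Bst2, Ifi27, Serpina3g, Gbp2 and Tnfsf10. They are 8 of 28205 features, and all 8 had counts in both libraries. The members were chosen by their known antiviral role and by levels seen in an earlier analysis of these same cells, so their level and their ratio in reporter cells are descriptions of a chosen group.

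The cells came from 1 pool of lineage-depleted bone marrow. GFP+ cells were sorted as DAPI-GFP+ alone from mice carrying Mds1-GFP/+ and Flt3-Cre, in which GFP sits in the Mds1 gene and marks long-term hematopoietic stem cells (LT-HSCs), and a cell in which Cre has acted loses the cassette between its loxP sites. They were mixed with LT-HSCs of wild type mice sorted as DAPI-Lin-cKit+Sca+CD48-CD150+, which made up most of the pool. No age, infection or interferon treatment is given in the labels. 2 aliquots of the pool were sequenced on the inDrops platform, which counts transcripts as unique molecular identifiers (UMIs) per droplet barcode, so n = 1 and the aliquots are technical. No p-value is given for any value here, and all intervals are exact 95% intervals for counting error only.

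A barcode was kept as a cell when it held 500 or more UMIs, no more than 20% of them from mitochondrial genes. Aliquot 1 gave 1574 cells with a median of 946.5 UMIs, and aliquot 2 gave 1828 cells with a median of 2072 UMIs, 3402 cells and 5668067 UMIs in all. The aliquots shared 55 barcode names among kept cells. The stem cell genes Kit and Hlf had a UMI in 51.4% and 53.3% of kept cells, while the lymphocyte markers Cd3e and Cd79a had 3 UMIs each in the whole pool. Whole lists gave more. With each cell thinned at random to 500 UMIs, 111 cells held a UMI of a lymphocyte list. A granulocyte and basophil list had a UMI in 459 thinned cells. Slamf1 (CD150) was seen in 2.70% of cells and Cd48 in 1.88%. A GFP UMI was found in 71 cells, 23 in aliquot 1 and 48 in aliquot 2. The series design states 46 GFP cells, by a filter that these sources do not give. A cell without a GFP UMI may still be a GFP+ cell.

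IFITM proteins sit in the plasma membrane and in endosomes and hinder the fusion of viral and cellular membranes. Interferons act through receptors that activate JAK kinases and STAT factors. A complex of STAT factors with IRF9 binds interferon-stimulated response elements, which hold repeats of GAAA, and pairs of STAT factors bind gamma-activated sites. Stem cells are known for keeping some of these genes on without an interferon signal, and for lowering them as they differentiate.

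On GRCm38 in GENCODE vM21, all 8 are protein-coding genes. The 3 Ifitm genes lie within 55.9 kb of chromosome 7, with Ifitm2 at chr7:140954837-140955987 on the minus strand, Ifitm1 at chr7:140967221-140969825 on the plus strand and Ifitm3 at chr7:141009586-141010770 on the minus strand. Bst2 lies at chr8:71534255-71537456 on the minus strand. The other members are on plus strands, Ifi27 at chr12:103434211-103440239, Serpina3g at chr12:104236245-104241939, Gbp2 at chr3:142620602-142638008 and Tnfsf10 at chr3:27317028-27342427.

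Promoters of 7 of the 8 members, Ifi27 not among them, were matched in the RefSeq table of GRCm38.p6, which runs from 250 bases before to 50 bases after each RefSeq start. GAAANNGAAA, the core of the interferon-stimulated response element, was searched on both strands. It stands in 1131 of 32851 promoters of this length, 3.44%, and in those of Ifitm2, Ifitm3, Bst2 and Gbp2. Its letters were not found in the windows of Ifitm1, Serpina3g and Tnfsf10. The RefSeq window of Ifitm1 lies inside the GENCODE gene, downstream of its start at chr7:140967221. The bases before that start were not searched. The core of the gamma-activated site, TTCNNNGAA, which reads the same on both strands, stands in 8.30% of promoters and in those of Ifitm3, Bst2 and Serpina3g. In Bst2 and Ifitm3 the patterns overlap by their ends, and so do both copies of the first in Bst2. The stretches below show the promoters that hold the first pattern and part of the RefSeq window of Ifitm1, the most abundant member. Capitals mark each match to GAAANNGAAA, and Gbp2 carries it on the opposite strand. Ifitm2 is chr7:140955988-140956087, minus strand, Ifitm3 is chr7:141010715-141010744, minus strand, and Bst2 is chr8:71537546-71537645, minus strand. Gbp2 is chr3:142620594-142620623, plus strand, and Ifitm1 is chr7:140967928-140968027, plus strand. Ifitm3 and Gbp2 are given as 30 bases because their matches lie at or after an annotated transcript start. A match is a run of letters and was not measured as a bound site.
Ifitm2: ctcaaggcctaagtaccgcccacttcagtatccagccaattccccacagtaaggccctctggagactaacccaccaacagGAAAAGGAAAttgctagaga
Ifitm3: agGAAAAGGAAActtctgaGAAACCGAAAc
Bst2: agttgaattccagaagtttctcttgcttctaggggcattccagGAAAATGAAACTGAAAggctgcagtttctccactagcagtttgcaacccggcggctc
Gbp2: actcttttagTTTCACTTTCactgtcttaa
Ifitm1: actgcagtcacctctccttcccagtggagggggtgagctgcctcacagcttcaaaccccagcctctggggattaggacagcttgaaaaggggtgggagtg

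Ifitm1, whose protein is found mainly at the cell surface, was the most counted member. Its summed level was 725 UMIs per 1000000 UMIs (CPM) in aliquot 1 (685 to 768) and 661 CPM in aliquot 2 (636 to 687), 680 CPM over both (658 to 701). It ranked 168 among all features by count. Ifitm3, whose protein guards endosomes, stood at 389 CPM in aliquot 1 and 424 CPM in aliquot 2. Ifitm2, a close relative of Ifitm3, stood at 132 CPM in aliquot 1 (115 to 150) and 198 CPM in aliquot 2 (185 to 213), intervals that do not overlap. The other 7 members kept their aliquot levels within 1.5 times of each other.

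Of the other members, Serpina3g, an intracellular inhibitor of cathepsin proteases, was counted most, at 283 CPM and 282 CPM in aliquots 1 and 2. Bst2 (tetherin, which holds budding virus at the cell surface) was at 140 CPM and 141 CPM. Gbp2, a guanylate-binding GTPase that acts on pathogen vacuoles, was at 99.4 CPM and 82.4 CPM. Tnfsf10, the death receptor ligand TRAIL, was at 80.5 CPM and 91.1 CPM. Ifi27, a small hydrophobic interferon-induced protein, was at 65.2 CPM and 69.0 CPM. These levels count tagged transcript ends and are not scaled to transcript length. By count the order over both aliquots was Ifitm1, Ifitm3, Serpina3g, Ifitm2, Bst2, Tnfsf10, Gbp2 and Ifi27, in which Tnfsf10 (80.5 to 96.1 CPM) and Gbp2 (79.8 to 95.4 CPM) did not differ beyond counting error.

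**Figure D1:**
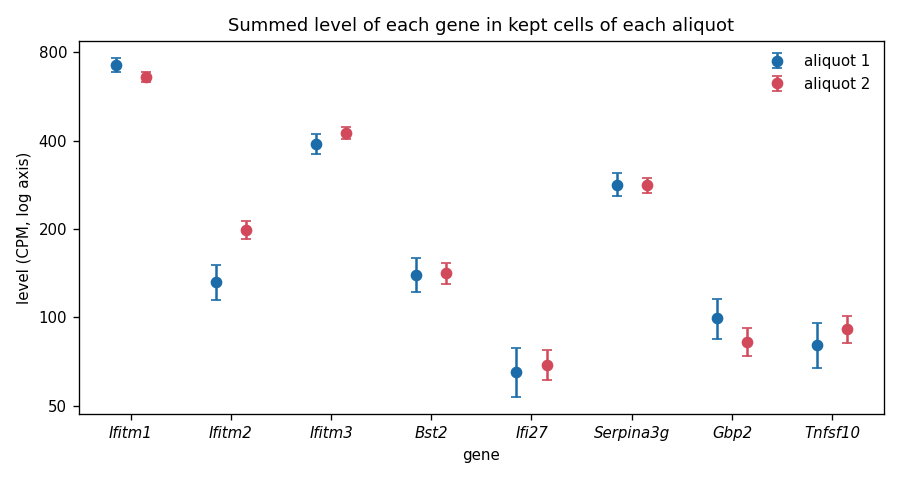
Summed level of each member (CPM, log axis) in the kept cells of aliquot 1 and aliquot 2, with exact 95% Poisson intervals as bars. Ifitm1 is highest in both aliquots, and Ifitm2 is the member whose aliquots stand farthest apart, at 132 and 198 CPM.

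Some of these counts could belong to near-identical genes, and the sources do not state how reads shared by copies were assigned. Of the 30-base words in the longest coding transcript of Ifitm2, 56.1% also occur in transcripts of other genes, such as Gm8865 and Gm11951. The share was 31.2% for Serpina3g, mainly with Serpina3f and Serpina3h, 21.3% for Ifitm3 and 15.5% for Ifitm1. It was 5.19% for Gbp2, 1.29% for Tnfsf10 and 0 for Bst2 and Ifi27. Aligned bases of the Ifitm transcripts were 79.2 to 80.9% identical between pairs. Counting all of these words, Ifitm2 shares the most. In the last 500 bases, nearest the tagged end, the share was 52.2% for Ifitm2, 29.3% for Ifitm3, 28.0% for Ifitm1, 16.4% for Serpina3g and 0 for the other 4 members.

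A UMI of any Ifitm gene was found in 73.3% of kept cells (71.8 to 74.8%), and a UMI of any of the 8 members in 84.8% (83.6 to 86.0%). Depth sets such shares, so each cell was also thinned to 500 UMIs. At that depth, 44.5% of cells of aliquot 1 and 45.7% of cells of aliquot 2 held an Ifitm UMI, and 57.9% of all cells held a UMI of any member. Ifitm1 was found in 50.0% of cells unthinned and 28.3% thinned, Ifitm3 in 41.7% and 18.5%, and Serpina3g in 29.4% and 12.1%. Ifitm2 was found in 7.91% of thinned cells, Bst2 in 5.82%, Gbp2 in 4.32%, Tnfsf10 in 3.44% and Ifi27 in 3.06%. No kept cell held UMIs of all 8 members, 3 cells held 7 of them, and 516 cells held none.

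RNA free in the droplet fluid also gives UMIs. Barcodes under 200 UMIs carried Ifitm1 at 812 CPM in aliquot 2 (737 to 893), above the level in its cells. If every kept cell of aliquot 2 held as many free UMIs as such a barcode, 124 Ifitm1 UMIs (113 to 136) would be free, against 2662 counted. In aliquot 1 the figure was 102 of 1190, from 13 free UMIs. For Serpina3g it was 70.5 of 465 in aliquot 1 and 47.9 of 1134 in aliquot 2. For Tnfsf10 in aliquot 1 it was 39.2 of 132, from 5 free UMIs, and was 23.5 of 163 for Gbp2 there, from 3 free UMIs.

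Ifitm1 level was lower in the deepest cells. Cells of each aliquot were ordered by depth and cut into 4 equal groups, in which Ifitm1 was at 1080, 1008, 849 and 351 CPM in aliquot 1 and at 829, 992, 783 and 363 CPM in aliquot 2, from shallowest to deepest. The deepest group was the lowest in both aliquots. Ifitm3 in the deepest group was at 271 CPM in aliquot 1 and 310 CPM in aliquot 2, against 447 to 538 CPM in the other groups. Gbp2 also stood lowest there, at 53.8 CPM and 53.2 CPM. Ifitm2 showed no such drop, with 133 and 203 CPM in the deepest groups and 134 and 207 CPM in the shallowest.

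**Figure D2:**
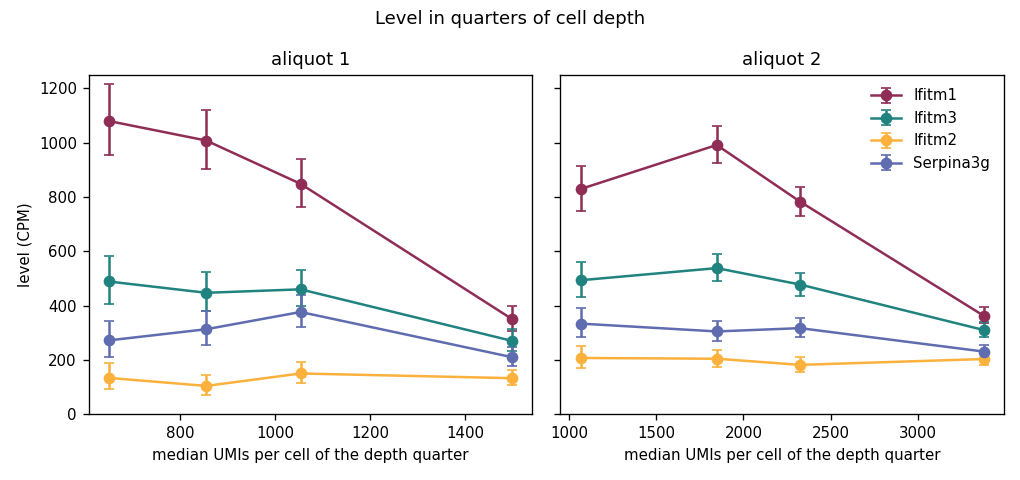
Level (CPM) of Ifitm1, Ifitm3, Ifitm2 and Serpina3g in 4 equal groups of cells ordered by UMIs per cell, for aliquot 1 (left) and aliquot 2 (right), with exact 95% Poisson bars. Ifitm1 drops to 351 and 363 CPM in the deepest group, while Ifitm2 stays near its level.

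Cells varied more in Ifitm1 than Poisson sampling gives. The variance of thinned Ifitm1 counts was 1.44 times their mean, against a median of 1.20 for the 59 genes of like level, and 2438 cells held none where a Poisson count of that mean leaves 2285. Tnfsf10 was the most uneven member, at 1.55 times against a median of 1.13 for 1190 genes of like level. The 35 cells richest in Tnfsf10 held 38.7% of its UMIs, whereas the same number of cells held 9.16% of Ifitm1 UMIs. Ifitm2 was the most even, with a variance 0.990 times its mean, near the bottom of 621 genes of like level (percentile 0.322).

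Of the 3 pairs of Ifitm genes, Ifitm1 with Ifitm3 was found in the same cell slightly more often than depth predicts. After thinning, 102 cells of aliquot 1 and 114 cells of aliquot 2 held both Ifitm1 and Ifitm3, where independent detection within 10 groups of depth gives 84.8 and 101. Over both aliquots that is 216 cells against 186, 1.16 times (1.01 to 1.33). Ifitm1 with Ifitm2 was at 1.09 times (0.874 to 1.35) and Ifitm2 with Ifitm3 at 0.941 times (0.694 to 1.25). For comparison, Ifitm1 with 2933 other genes, each found in 104 to 964 thinned cells, gave a median of 0.986 times. From the 5th to the 95th percentile it was 0.767 to 1.22 times. The Ifitm1 and Ifitm3 pair lies within that range. The range pools rarely and often detected genes, so it cannot show whether 1 pair is unusual.

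Pairs of an Ifitm gene with another member spread more widely. Ifitm3 with Gbp2 was seen in 41 cells against 27.9 expected, 1.47 times (1.06 to 2.00). Aliquot 1 gave 1.36 times and aliquot 2 gave 1.61 times. Ifitm3 with Serpina3g was seen in 97 cells against 78.4, 1.24 times (1.00 to 1.51). With the same pooled genes, Ifitm3 ran from 0.741 to 1.26 times between the 5th and 95th percentiles. That range holds the Serpina3g pair and has the same limit. Of the 28 pairs of members, 20 lay above 1 over both aliquots and 13 in each aliquot alone, with a median of 1.16 times. In 3 pairs the interval lay above 1 and in none below it. Over 6 random draws of the thinning, Ifitm3 with Gbp2 ranged from 1.13 to 1.47 times, with a median of 1.35. Ifitm3 with Serpina3g ranged from 1.09 to 1.24 times and Ifitm1 with Ifitm3 from 1.12 to 1.24 times. The draw used above gave the highest value for Ifitm3 with Gbp2 and for Ifitm3 with Serpina3g. On unthinned counts the median of the 28 pairs was 1.05 times, and Ifitm2 with Ifi27 was the only pair with an interval below 1, at 0.727 times (0.560 to 0.928). Ifitm3 with Gbp2 was at 1.16 times on these counts (0.997 to 1.33), an interval that includes 1. Ifitm3 with Serpina3g was at 1.09 times (1.00 to 1.19) and Ifitm1 with Ifitm3 at 1.105 times (1.03 to 1.18). Across cells, the thinned sum of the 3 Ifitm genes and that of the other 5 members had a Pearson correlation of 0.0934 (0.0888 in aliquot 1 and 0.0973 in aliquot 2), given as a description over cells that share a library.

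**Figure D3:**
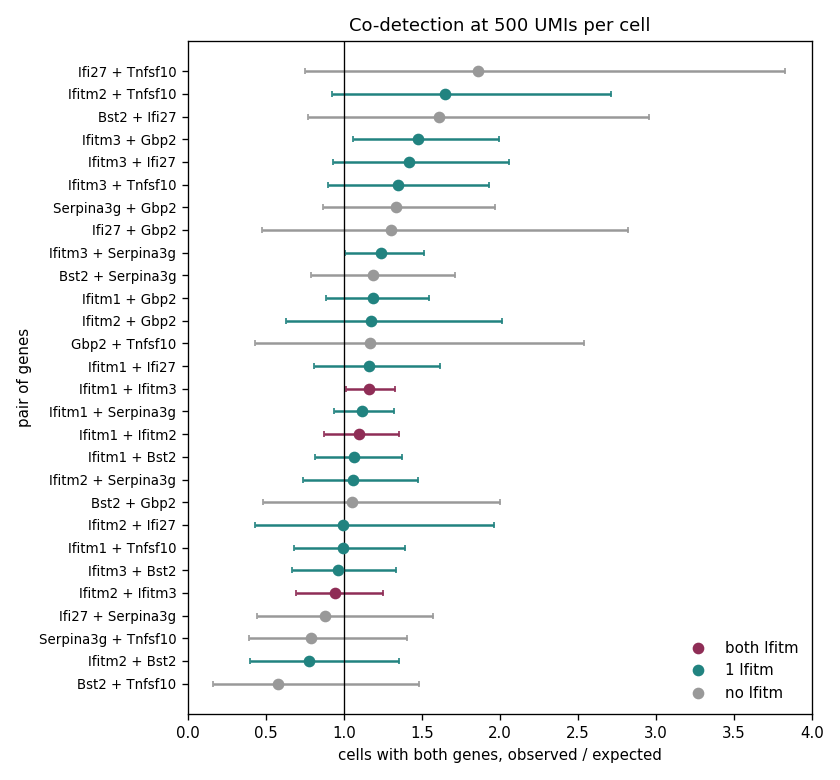
Cells holding both genes of a pair after thinning to 500 UMIs per cell, as observed over expected (x axis), for the 28 pairs of members (y axis) over both aliquots, with exact 95% Poisson bars. Most points lie right of 1, with wide bars. In the draw shown the bar clears 1 for Ifitm3 with Gbp2, Ifitm3 with Serpina3g and Ifitm1 with Ifitm3. On unthinned counts the interval of Ifitm3 with Gbp2 includes 1.

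Whether the other 5 members vary with the Ifitm genes was read by splitting cells into 1536 with a thinned Ifitm UMI and 1866 with none. In this and later splits other than GFP, a UMI or its absence refers to thinned counts. On all counts the second set still held Ifitm1 at 272 CPM, against 1240 CPM in the first, so it is not a set without Ifitm transcripts. The sum of the 5 stood at 787 CPM in the first set (752 to 824) and 578 CPM in the second (552 to 605), a ratio of 1.36 (1.28 to 1.45), with 1.30 in aliquot 1 and 1.39 in aliquot 2. Gbp2 stood at 136 against 73.5 CPM in aliquot 1 and at 109 against 63.1 CPM in aliquot 2, a ratio of 1.76 over both (1.47 to 2.11). Serpina3g had a ratio of 1.38 (1.25 to 1.52), with 1.24 and 1.44 in the aliquots. Tnfsf10 had a ratio of 1.52 (1.27 to 1.82), with 1.19 in aliquot 1 and 1.65 in aliquot 2. Bst2 was at 1.18 (1.02 to 1.35) and Ifi27 at 1.10 (0.892 to 1.35).

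A ratio of at least 1.5 was used to count genes, among genes for which 10 or more UMIs were seen in the smaller set or expected there from the larger. In this split 2 of the 5 other members, Gbp2 and Tnfsf10, were at least 1.5-fold higher, where 8.23% of 11781 genes were, and none was at least 1.5-fold lower, where 7.02% of genes were. The count rests on ratios near 1.5. Over 6 random draws of the thinning it was 0 to 2, with Gbp2 between 1.40 and 1.83 and Tnfsf10 between 1.11 and 1.53, whereas the summed ratio lay between 1.26 and 1.36.

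Cells with a thinned Ifitm UMI also carried more LT-HSC transcripts and fewer cycle transcripts than cells with none after thinning. The summed LT-HSC list stood at 3147 CPM against 2081 CPM, and the summed G2/M list at 1216 CPM against 2200 CPM. The LT-HSC list includes Procr, Sult1a1 and Ly6a, whose own ratios in this split are given below and are not separate from its sum. The granulocyte and basophil list stood at 1431 CPM against 3066 CPM and the MHC class II list at 690 CPM against 487 CPM. Without the 172 cells that carried at least 2 thinned granulocyte or monocyte UMIs, the summed ratio of the 5 was 1.33. Median depth was 1310 UMIs against 1478 UMIs. Among cells with no thinned G2/M UMI alone, a setting chosen after seeing the data, the summed ratio of the 5 was 1.25.

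Cells were also split by single Ifitm genes. In cells with a thinned Ifitm1 UMI, Ifitm3 was at 1.48 times the level of the other cells (1.36 to 1.62), and in cells with an Ifitm3 UMI, Ifitm1 was at 1.47 times (1.36 to 1.58). Ifitm2 was at 1.02 times (0.881 to 1.18) and 1.00 times (0.848 to 1.18) in these splits. Median depth was 1220 against 1480 UMIs in the Ifitm1 split and 1372 against 1424 UMIs in the Ifitm3 split. These ratios were not taken within depth groups, where co-detection of Ifitm1 with Ifitm3 was at 1.16 times. In cells with an Ifitm2 UMI, Ifitm1 was at 1.17 times (1.04 to 1.30), where aliquot 1 gave 0.957 and aliquot 2 gave 1.25, and Ifitm3 was at 1.04 times (0.899 to 1.21). Gbp2 was highest in cells with an Ifitm3 UMI, at 1.86 times (1.52 to 2.27). Cells with a Bst2 UMI held Tnfsf10 at 0.474 times (0.257 to 0.803), on 14 UMIs of this unevenly spread gene. On unthinned counts, 51 cells held both genes against 49.0 expected from depth, 1.04 times (0.774 to 1.37). Cells with a Tnfsf10 UMI held Ifi27 at 1.70 times (1.04 to 2.64). After thinning, 1 cell of aliquot 1 held this pair against 2.00 expected, and 6 cells of aliquot 2 against 1.77. On unthinned counts it was 27 cells against 25.9 expected, 1.04 times (0.688 to 1.52).

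Procr encodes the endothelial protein C receptor, a surface marker of mouse LT-HSCs. A thinned Procr UMI was found in 274 cells, at a median of 1210 UMIs against 1430 UMIs in the 3128 cells with none. Ifitm1 stood at 1072 CPM in Procr cells of aliquot 1 and 698 CPM in the other cells, and at 1254 against 618 CPM in aliquot 2. The ratio over both was 1.87 (1.69 to 2.06), and Procr cells were higher in both aliquots. Ifitm3 was at 1.30 times (1.12 to 1.50), from 1.16 and 1.36, and Ifitm2 at 1.02 times (0.791 to 1.30). Among the others, Gbp2 was at 1.88 times (1.41 to 2.46), from 1.09 in aliquot 1 and 2.32 in aliquot 2, and Tnfsf10 at 1.49 times (1.09 to 2.00). Serpina3g was at 1.10 times (0.910 to 1.33), where aliquot 1 gave 1.51 and aliquot 2 gave 0.930. Bst2 and Ifi27 had intervals that include 1.

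In this split 2 of the 8 members were at least 1.5-fold higher, where 11.9% of 7314 genes were, and none was at least 1.5-fold lower, where 12.8% were. Over 6 thinning draws Ifitm1 stayed between 1.84 and 1.90 and Ifitm3 between 1.30 and 1.68, while Gbp2 ranged from 1.39 to 2.07 and Tnfsf10 from 0.889 to 1.49. The ratio of Ifitm1 varied less over draws than those of Ifitm3, Gbp2 and Tnfsf10. Procr cells also carried fewer G2/M UMIs, 811 CPM against 1858 CPM for the summed list, and fewer granulocyte and basophil UMIs, 360 CPM against 2528 CPM, and monocyte and macrophage UMIs, 281 CPM against 675 CPM. Without the 172 cells that carried at least 2 thinned granulocyte or monocyte UMIs the ratio of the Ifitm sum was 1.54, against 1.56 with them.

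G2/M transcripts mark cells that are about to divide, which is rare in resting LT-HSCs. Cells with at least 2 thinned UMIs of a list of 30 such genes numbered 464, and 2509 cells had none after thinning. On all counts the latter still carried the list at 344 CPM, against 7336 CPM in the former. Ifitm1 stood at 221 CPM in G2/M cells of aliquot 1 and 897 CPM in cells with none, and at 255 against 789 CPM in aliquot 2. Over both it was at 0.298 times (0.261 to 0.339), the lowest ratio of the 8 members. Ifitm3 was at 0.546 times (0.477 to 0.622), from 192 against 445 CPM in aliquot 1 and 279 against 470 CPM in aliquot 2. Ifitm2 was at 0.784 times (0.653 to 0.936), with 0.780 and 0.788 in the aliquots.

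Of the other members, 3 were also low in G2/M cells. Serpina3g was at 0.509 times (0.429 to 0.601), Gbp2 at 0.548 times (0.404 to 0.730) and Tnfsf10 at 0.555 times (0.410 to 0.738). Aliquot 1 gave lower values for Serpina3g, 0.319 times, and Gbp2, 0.328 times, than aliquot 2, with 0.601 and 0.674 times. Bst2, at 0.902 times (0.741 to 1.09), and Ifi27, at 0.903 times (0.676 to 1.19), had intervals that include 1. All 8 ratios lay below 1, with a median log2 ratio of -0.86 against -0.05 for all genes. The share of all genes below 1 was not counted. Of the 8 members, 5 were at least 1.5-fold lower, where 16.2% of 10045 genes were. None was at least 1.5-fold higher, where 11.9% of genes were. The count of 5 held in each of 6 thinning draws, but was 3 without the deepest 5% of cells and 1 when a single G2/M UMI sufficed, while the ratio of the Ifitm sum was then 0.578.

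G2/M cells were deeper, at a median of 1845 UMIs against 1278 UMIs, and carried more granulocyte and basophil UMIs, 5745 CPM against 1301 CPM, and more monocyte UMIs, 1131 CPM against 499 CPM. Within the 4 depth groups, Ifitm1 was at 0.337, 0.545, 0.440 and 0.388 times from shallowest to deepest, each interval below 1. In the same order Ifitm3 was at 0.703, 0.980, 0.622 and 0.573 times and Serpina3g at 0.493, 0.898, 0.621 and 0.496 times. Ifitm3 had intervals including 1 in the first and second groups, and Serpina3g in the second. Gbp2 was at 0.887, 1.165, 0.638 and 0.648 times, each interval including 1. Tnfsf10 was at 1.53, 0.2995, 1.04 and 0.463 times, with an interval below 1 in the deepest group only. Depth was not matched in the third group, with medians of 1215 UMIs in G2/M cells and 2094 UMIs in the others. In the first it was 735 against 719.5 UMIs and in the second 1633 against 1568 UMIs. The deepest group held 268 of the G2/M cells at a median of 2818 UMIs and 433 of the others at 2766 UMIs, and there Ifitm1 was at 185 against 477 CPM. Without the 172 cells that carried at least 2 thinned granulocyte or monocyte UMIs, the ratio of the Ifitm sum was 0.447, against 0.438 (0.403 to 0.475) with them. S phase transcripts showed the same order, with Ifitm1 at 0.426 times in cells with at least 2 of their UMIs (0.392 to 0.463), Ifitm3 at 0.647 times (0.586 to 0.714) and Ifitm2 at 0.918 times (0.795 to 1.06).

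Procr and G2/M were then read together, each counted after thinning. A cell without a thinned UMI may still hold the transcript, and 540 cells held a Procr UMI before thinning. The Ifitm sum was highest in the 228 cells with a thinned Procr UMI and no thinned G2/M UMI, at 2025 CPM (1872 to 2187). It stood at 1422 CPM (1382 to 1461) in the 2281 cells with neither. In the 448 cells with G2/M UMIs and no Procr UMI it was 639 CPM (590 to 691). The 16 cells with both gave 822 CPM (537 to 1204) from 26 UMIs. Ifitm1 alone went from 1310 CPM in the first set to 241 CPM in the set with G2/M UMIs only.

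Reporter cells, those with at least 1 GFP UMI, had a median of 1702 UMIs against 1412 UMIs in the other 3331 cells, and 67.6% of them came from aliquot 2 against 53.4%. The reporter allele, the mice and the gate differ together between the sources mixed here, so their parts cannot be told apart. Serpina3g stood at 893 CPM in reporter cells of aliquot 1 and 275 CPM in the others, and at 749 against 268 CPM in aliquot 2, 2.87 times over both (2.33 to 3.49). It was found in 50 of the 71 reporter cells, 70.4% (58.4 to 80.7%), against 28.5% of the others. No single reporter cell held more than 6.60% of its UMIs there.

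Ifitm1 was at 1409 CPM in reporter cells and 662 CPM in the others, a ratio of 2.13 (1.83 to 2.46). Aliquot 1 gave 1.48 (0.951 to 2.19) and aliquot 2 gave 2.32 (1.98 to 2.72). It was found in 52 reporter cells, 73.2% against 49.5%. Ifitm3, at 394 against 414 CPM, was at 0.951 times (0.712 to 1.25), and Ifitm2 was at 1.06 times (0.690 to 1.56). Tnfsf10 was at 2.49 times (1.65 to 3.63) from 29 UMIs in 12 cells, of which 1 cell held 24.1%. Its ratio was 1.06 in aliquot 1, on 2 UMIs, and 2.74 in aliquot 2. Bst2 was at 1.63 times (1.10 to 2.34), while Gbp2, at 1.35 times (0.765 to 2.21), and Ifi27, at 1.41 times (0.744 to 2.44), had intervals that include 1. These rested on few UMIs, with Ifi27 at 4.09 times on 6 UMIs in aliquot 1 and 0.891 times in aliquot 2, and Gbp2 at 2.18 and 1.18 times.

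Here 4 of the 8 members were at least 1.5-fold higher, where 18.1% of 3440 genes were, and none was at least 1.5-fold lower, where 11.3% were. Since members were chosen with reporter ratios known, nothing is read from that count. Among cells with no thinned G2/M UMI, Ifitm1 was at 2.20 times in reporter cells (1.87 to 2.58). Among cells with no thinned Procr UMI it was at 2.30 times (1.98 to 2.67). The 4 reporter cells with a thinned Procr UMI gave 0.840 times (0.336 to 1.75). The 10 reporter cells with at least 2 thinned G2/M UMIs gave 0.726 times (0.196 to 1.88), both on few UMIs. Reporter cells carried the granulocyte and basophil list at 248 CPM against 2429 CPM and the immediate early list at 4817 CPM against 2943 CPM. The part of these in the members' ratios was not tested.

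**Figure D4:**
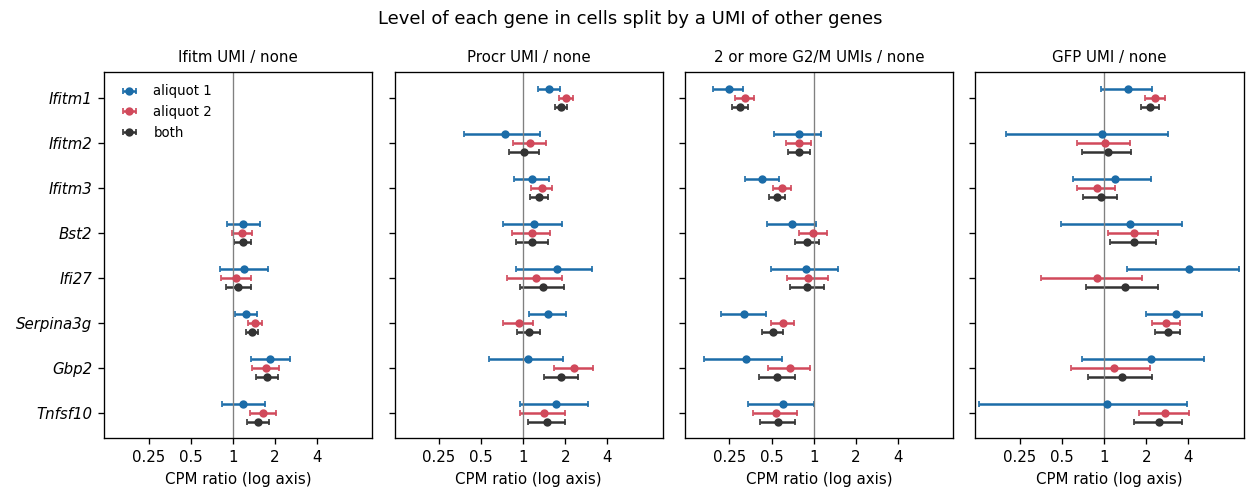
Ratio of CPM (log axis) between the 2 cell sets of each split, with exact 95% intervals, for aliquot 1, aliquot 2 and both together. Ifitm1 lies right of 1 for Procr (1.87) and GFP (2.13) and left of 1 for G2/M (0.298), while Ifitm2 stays close to 1 in the Procr and GFP panels.

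The balance of Ifitm1 to Ifitm3 UMIs therefore differed between cell sets. Over all kept cells there were 1.64 Ifitm1 UMIs per Ifitm3 UMI (1.56 to 1.73). The figure was 0.969 in G2/M cells (0.810 to 1.16), with 1.15 and 0.914 in the aliquots, and 1.78 in cells with no thinned G2/M UMI. It was 2.27 in Procr cells (1.93 to 2.69) and 3.57 in reporter cells (2.63 to 4.93), with 2.27 and 3.91 in the aliquots. In the 95 cells with at least 2 thinned monocyte and macrophage UMIs it was 0.628 (0.445 to 0.878), from 1.17 in aliquot 1 and 0.451 in aliquot 2.

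Other marker lists place the members among cell states. In the 1336 cells with at least 2 thinned UMIs of 16 LT-HSC genes, against cells with none, Ifitm1 was at 2.51 times (2.32 to 2.73) and Tnfsf10 at 2.20 times (1.76 to 2.76), the latter from 1.23 times in aliquot 1 and 2.73 times in aliquot 2. Gbp2 was at 1.52 times, Ifitm3 at 1.47 times and Serpina3g at 1.44 times, with intervals above 1, and Ifitm2 was at 1.02 times (0.881 to 1.19). Cells with MHC class II UMIs, the antigen presentation genes, held Tnfsf10 at 1.82 times (1.33 to 2.45), Ifitm1 at 1.68 times and Ifi27 at 1.58 times (1.07 to 2.27). Cells with immediate early UMIs, genes switched on quickly by signals or by handling, held Ifitm1 at 1.48 times and Gbp2 at 1.50 times.

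Lineage lists gave lower or mixed values. Tnfsf10 was at 0.596 times (0.416 to 0.832) in cells with megakaryocyte UMIs, while Ifitm1 was at 1.19 times there (1.08 to 1.31). In monocyte-list cells Ifitm1 was at 0.523 times (0.398 to 0.677) and Ifitm3 at 1.42 times (1.14 to 1.75). Ifitm1 was below 1 in both aliquots, at 0.641 and 0.449 times. The value of Ifitm3 came from aliquot 2, with 1.62 times (1.26 to 2.06) against 1.05 times (0.656 to 1.58) in aliquot 1. Gbp2 was at 0.354 times there, on 5 UMIs. Cells with granulocyte and basophil UMIs had all 8 members between 0.619 and 0.852 times, with intervals below 1 for Ifitm2 and Serpina3g. Aliquot 1 carried most of this, with the Ifitm sum at 0.375 times (0.237 to 0.564), against 0.945 times (0.808 to 1.10) in aliquot 2. The other 5 members together were at 0.323 and 0.825 times. With 1 such UMI or more as the threshold, Ifitm1 was at 1.14 times instead (1.04 to 1.24). Cells with at least 2 multipotent progenitor and lymphoid UMIs held Serpina3g at 0.717 times (0.549 to 0.922), from 1.03 times in aliquot 1 and 0.595 times in aliquot 2.

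**Figure D5:**
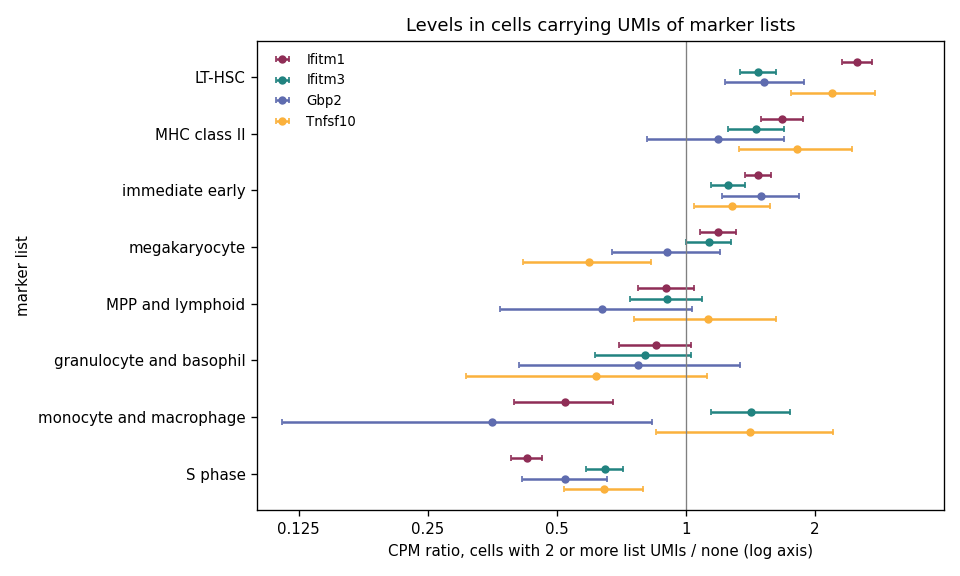
Ratio of CPM (log axis) between cells with at least 2 thinned UMIs of a marker list and cells with none, for Ifitm1, Ifitm3, Gbp2 and Tnfsf10 over both aliquots, with exact 95% intervals. Ifitm1 runs from 0.426 for S phase to 2.51 for LT-HSC genes, and Ifitm1 and Ifitm3 part in the monocyte row.

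The interferons themselves were nearly undetected. Of 21 interferon gene features, 6 had a UMI in kept cells, 1 each for Ifna16, Ifnab, Ifnb1, Ifng, Ifnl2 and Ifnl3. Receptor and signalling genes were present: Jak1, a kinase of both receptor types, was at 474 CPM, Ifngr1, a chain of the interferon gamma receptor, at 190 CPM, and Irf9, a part of the complex named above, at 132 CPM. In Procr cells Irf9 was at 1.71 times (1.35 to 2.15) and Jak1 at 1.40 times (1.22 to 1.59), and 6 of the 12 measured genes of this list were at least 1.5-fold higher and 1 was at least 1.5-fold lower, where 11.9% and 12.8% of all genes were. The count rests on aliquot 2, which alone gave 4 of 10 higher, while aliquot 1 alone gave 0 of 6 higher and 1 lower.

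The classical interferon response list, 47 genes such as Isg15 and Irf7 without the members, followed the Ifitm genes weakly. Its most counted genes were Ly6e, a membrane protein that hinders coronavirus entry, at 500 CPM, Lgals3bp at 288 CPM, Shisa5 at 240 CPM and Samhd1, a nucleotide hydrolase that limits retroviruses, at 211 CPM. In the Ifitm split, 7 of its 41 measured genes were at least 1.5-fold higher, where 8.23% of all genes were. None was at least 1.5-fold lower, where 7.02% were. The list's median log2 ratio was 0.18, against 0.46 for the 5 members and 0.01 for all genes. In the G2/M split, 14 of 35 were at least 1.5-fold lower, where 16.2% of all genes were, and none higher, where 11.9% were. The median was -0.55 against -0.86 for the members and -0.05 for all genes. Samhd1 was at 0.527 times there and Ly6e at 1.08 times (0.981 to 1.19). In the Procr split the list's median was 0.10. There 5 of 29 were at least 1.5-fold higher, where 11.9% of all genes were, and none lower, where 12.8% were.

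The list of genes linked to interferon gamma was read the same way. Of 20 measured genes, 10 were at least 1.5-fold higher in cells with a thinned Ifitm UMI, where 8.23% of all genes were. Of the 20, 1 was at least 1.5-fold lower, where 7.02% of all genes were. The median log2 ratio was 0.60 against 0.01 for all genes. Ly6a, encoding stem cell antigen Sca-1, a sort marker of the wild type source, had a ratio of 1.72 (1.54 to 1.92). B2m, the light chain of MHC class I, was at 4549 CPM and differed little, at 1.13 times (1.10 to 1.15), and Psmb8, an immunoproteasome subunit, was at 1.01 times (0.905 to 1.12). In G2/M cells 10 of 17 were at least 1.5-fold lower, where 16.2% of all genes were. Of the 17, 1 was at least 1.5-fold higher, where 11.9% were. Ly6a was at 0.482 times (0.398 to 0.579), while Tap1, the peptide transporter, was at 1.38 times (1.15 to 1.65). In reporter cells none of 11 was at least 1.5-fold higher, where 18.1% of all genes were, and 3 were at least 1.5-fold lower, where 11.3% were. Tap1 was at 0.543 times (0.259 to 1.00).

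Splitting the other way, 2501 cells held a thinned UMI of the interferon response list and 901 held none. All 8 members lay above 1, between 1.12 and 1.43 times, with a median log2 ratio of 0.34 against 0.003 for all genes. The share of all genes above 1 was not counted. The intervals of Ifitm2 (0.984 to 1.31), Bst2 (0.951 to 1.315), Ifi27 (0.963 to 1.56) and Tnfsf10 (0.919 to 1.39) include 1. No member was at least 1.5-fold higher, where 6.48% of 10931 genes were, and none was at least 1.5-fold lower, where 5.18% were. Near relatives of the members were scarce. Ifitm7 had 46 UMIs and was at 2.58 times in cells with a thinned Ifitm UMI (1.36 to 5.06). Serpina3f had 89 UMIs and was at 1.93 times (1.24 to 3.03), and both share sequence with a member. Zmpste24, a protease that works with IFITM proteins, was at 63.0 CPM and at 1.05 times (0.849 to 1.31).

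The genes most like the Ifitm sum were ranked by the smaller of their 2 aliquot ratios in the Ifitm split, among 6006 genes with at least 20 UMIs in each set of each aliquot. The list describes these cells and has no test. Sult1a1, a sulfotransferase, led with 2.66 in aliquot 1 and 2.25 in aliquot 2, 127 against 54.0 CPM over both. Tinagl1, a matrix protein, had 2.76 and 2.13, and Lpar6, a lysophosphatidic acid receptor, 2.69 and 2.05. Procr was the fourth, with 2.06 and 2.04, and Cd74, the invariant chain of MHC class II, the fifth, with 2.81 and 2.01. Cmpk2, an interferon-induced nucleotide kinase, had 1.91 and 1.79, and Ctsl, Thap3, Abcg3 and Hsd17b11 completed the list.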

How the data were processed

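The deposited files hold raw UMI counts per feature and barcode, made by the authors with no normalization. GRCm38, RSEM 1.3.0, Bowtie 1.1.1 and SAMtools 1.3.1 are listed in the submitters' processing notes, without roles. Per the labels, GFP counts come from a match to the floxed reporter cassette, and that row was left out of all totals. Of 28205 feature symbols, 26589 were in the gene table used.

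Kept cells held 500 to 3993 UMIs in aliquot 1 and 501 to 9241 in aliquot 2, 1640734 and 4027333 UMIs in all. Counts were summed over cell sets and scaled to 1000000 (CPM) with exact Poisson intervals. Ratios of CPM have exact conditional binomial intervals and shares of cells Clopper-Pearson intervals. UMIs of a gene cluster in cells, so these intervals are too narrow for differences between cells. Thinning drew 500 UMIs per cell without replacement. It set which cells entered a split other than GFP, so cells called without a UMI may hold some on all counts. Ratios used all UMIs. Expected co-detection was summed over 10 depth groups in each aliquot. Doublets were not removed. With 1 pool, no test between groups was run. The ratio calculation was tested on simulated data.

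The members and gene lists were chosen with earlier results of these data known. Named genes are the 8 members, the 4 most counted genes of each interferon list, the genes used for splits and the 10 ranked as most like the Ifitm sum, and pool markers. A gene that the rule names is not reported here. Isg15, Irf7 and single interferon genes were named outside that rule. Alternatives covered the aliquot, depth, mitochondrial, marker, thinning and threshold choices. Python 3.11.15, numpy 2.4.6, scipy 1.17.1 and matplotlib 3.10.9 were used.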

Additional observations from a re-analysis of the deposited data

How the results depend on the processing

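Without either aliquot, the Ifitm sum ratio was 0.352 to 0.476 in the G2/M split, 1.33 to 1.66 in the Procr split and 1.34 to 1.64 in the reporter split. Members at least 1.5-fold higher then numbered 1 to 2 in the Ifitm split and 2 to 4 in the Procr split. Over both aliquots 8.23% and 11.9% of all genes were. The G2/M ratio of 0.438 became 0.578 with at least 1 G2/M UMI, 0.368 with at least 3 and 0.481 in thinning draw 6. Members at least 1.5-fold lower there, 5 in the report where 16.2% of all genes were, numbered 3 without the deepest 5% of cells. They numbered 1 with at least 1 G2/M UMI. The Procr ratio of 1.56 became 1.44 as a mean over cells, 1.69 with at least 2 Procr UMIs and 1.43 in cells with no G2/M UMI, a setting chosen after seeing the data. Its count of 2 became 1 in draws 4 and 6 and 3 in draw 2. The ratio of the other 5 members in the Ifitm split, 1.36, became 1.26 in draw 5, 1.75 with at least 2 Ifitm UMIs and 1.25 in cells with no G2/M UMI. Its count of 2 became 1 without granulocyte and monocyte marker cells, without the deepest cells, as a mean over cells, without the cell holding most UMIs, in draws 3, 5 and 6, with unthinned sets and in cells with no G2/M UMI, and 0 in draw 2. The Ifitm level of 1273 CPM became 1218 with at least 1000 UMIs per cell, 1358 without the deepest cells and 1397 as a mean over cells, and the thinned share of 45.2% became 43.2% with at least 1000 UMIs. For Procr, Gbp2 changed side to 0.956 with at least 2 Procr UMIs and Tnfsf10 to 0.889 in draw 6. The cause was not tested. Leaving out 110 cells whose barcode name was kept in both aliquots, added after seeing the data, moved none of the summed ratios or counts. No paired analysis was possible because the 2 aliquots come from 1 pool and form 1 group. The number of reporter cells, 71, limits the precision of their ratios.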
